A study of Rattus norvegicus with 9 samples.

Results

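Genes of retinoid metabolism were described in the liver of diabetic rats, with Aldh1a1, which codes for a retinal dehydrogenase, as the main gene. The 7 genes Rbp4, Lrat, Rdh10, Aldh1a1, Aldh1a7, Cyp26a1 and Rarb were chosen by symbol, and every probe set that the annotation of the rat expression array assigns to them was taken. Of the 7 symbols 6 had a probe set, with 7 of the 31042 probe sets of the array in all, and 6 of these, 1 per gene, passed the filter on low signals. Aldh1a7 had no probe set in the annotation. Whether the Aldh1a1 probe set also reads this close paralog was not tested.

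The 9 rats were male Goto-Kakizaki (GK) rats, an inbred strain that develops type 2 diabetes spontaneously, and 1 liver array was made from each. They were bought at 5 weeks of age and kept for 7 weeks until they were diabetic. The 6 rats with chronic unpredictable mild stress (CUMS) then had a daily stressor for 8 weeks and lived alone in their cages, and the labels give CUMS 1–3 the symptom major depression and CUMS 4–6 mild depression. The 3 control rats were kept for the same time without stress, and all rats had received 6 mg/kg repaglinide, an oral antidiabetic drug, by gavage before the livers were taken. Single housing and the stressors cannot be told apart in this design, and no rat without diabetes or without repaglinide was analysed. The question put to the arrays was which liver genes differ in stressed diabetic rats.

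Vitamin A reaches the liver as retinyl ester and is stored, after re-esterification of retinol by lecithin retinol acyltransferase (Lrat), mainly in the lipid droplets of stellate cells. Hepatocytes release retinol into blood bound to retinol binding protein (Rbp4) and transthyretin (Ttr). In tissues, retinol is oxidised reversibly to retinal, by enzymes such as Rdh10, and retinal irreversibly to retinoic acid, by Aldh1a1 and its relatives. Retinoic acid is cleared by Cyp26 enzymes such as Cyp26a1 and acts through retinoic acid receptors such as Rarb, which bind with a partner receptor to repeated hexamers in the promoters of target genes. Both Cyp26a1 and Rarb are textbook targets of retinoic acid and are therefore read here beside the enzymes that make it.

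The promoters of Cyp26a1 and Rarb are shown because they carry such repeats, and that of Aldh1a1 because its signal differed most between the groups. They are RefSeq windows of 300 bases on assembly GRCr8, from 250 bases before to 50 bases after the gene start. Of the 7 genes 5 matched this table. Rdh10 and Aldh1a7 did not. Capitals mark the CCAAT box in Aldh1a1 and, in Cyp26a1 and Rarb, a repeat of 2 hexamers with a gap of 5 bases, where each hexamer may be AGGTCA or the variant AGTTCA, or else the form GGGTCA or its variant GGTTCA.
Cyp26a1, chr1:244883572-244883871, + strand: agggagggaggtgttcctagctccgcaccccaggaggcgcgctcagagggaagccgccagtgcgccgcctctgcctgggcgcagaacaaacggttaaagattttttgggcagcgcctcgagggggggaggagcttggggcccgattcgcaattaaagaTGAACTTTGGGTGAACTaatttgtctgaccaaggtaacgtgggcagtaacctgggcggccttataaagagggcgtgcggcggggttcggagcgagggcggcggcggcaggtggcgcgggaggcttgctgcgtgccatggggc
Rarb, chr15:11336142-11336441, + strand: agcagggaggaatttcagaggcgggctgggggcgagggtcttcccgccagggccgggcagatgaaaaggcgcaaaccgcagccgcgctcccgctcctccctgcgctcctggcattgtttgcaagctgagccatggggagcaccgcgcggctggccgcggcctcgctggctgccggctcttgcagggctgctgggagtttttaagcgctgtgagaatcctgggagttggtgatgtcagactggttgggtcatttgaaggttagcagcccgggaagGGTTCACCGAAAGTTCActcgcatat
Aldh1a1, chr1:227537370-227537669, + strand: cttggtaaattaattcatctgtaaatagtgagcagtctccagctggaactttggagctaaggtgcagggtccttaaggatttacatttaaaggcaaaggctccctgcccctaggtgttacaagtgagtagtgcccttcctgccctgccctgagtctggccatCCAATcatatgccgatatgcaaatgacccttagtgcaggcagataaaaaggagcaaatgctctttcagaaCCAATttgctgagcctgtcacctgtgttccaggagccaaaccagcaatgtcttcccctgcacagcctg
The repeat was searched on both strands. In Cyp26a1 it was on the reverse strand, as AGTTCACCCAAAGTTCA, 92 to 76 bases before the start, and in Rarb on the forward strand, as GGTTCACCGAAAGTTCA, at bases 25 to 41 of the transcript. Among all 33469 windows 128 (0.382%) held such a repeat, so that it is rare in windows of this length, and among the 5 genes searched it was found in 2. CCAAT stood 88 and 18 bases before the start of Aldh1a1, was found also in Lrat, and was present in 37.5% of all windows. TATAAA was found in Cyp26a1 and Rbp4 and in 14.2% of all windows. A match is a description of the letters and not of binding.

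The arrays were scaled by the authors to a common trimmed mean. Their median signals ran from 107 in CUMS 4 and 110 in CUMS 2 to 133 in control 3. Control 3 stood apart: its median correlation with the other arrays was 0.951, against 0.965 to 0.972 for the other 8, and it lay alone at −60.5 on the first principal component. As a sign of RNA quality, beta-actin read 5.23 times as high at its 3′ as at its 5′ probe set in CUMS 2 and 4.96 times in CUMS 4, against 2.51 to 3.73 times in the others. The same ratio for Gapdh was 1.75 in CUMS 2 and 1.46 in CUMS 4, against 1.32 to 1.37 in the others, so CUMS 4 stood less far apart by it. Of 12 hepatocyte markers 11 had a probe set, and all 11 passed the filter, with summed signals of 243656 to 294631 in control rats, 245341 to 283580 in CUMS 1–3 and 282262 to 309133 in CUMS 4–6. The defining markers of hepatocytes were thus present on every array. Results that rest on control 3 are given with and without it.

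Across the whole array limma called 0 of 18625 probe sets (0%) at an adjusted p under 0.05 in each of the 4 comparisons, and so 0 of the 6 retinoid probe sets. At an unadjusted p under 0.05, 482 probe sets (2.59%) were higher and 777 (4.17%) lower in CUMS 1–3 than in control, 509 (2.73%) and 661 (3.55%) in CUMS 4–6, and 572 (3.07%) and 905 (4.86%) in all CUMS rats. Between the CUMS groups they were 284 (1.52%) and 246 (1.32%). Of the 6 retinoid genes 1, Aldh1a1, was among the higher ones in each comparison with control, and 0 were among the others. The test of the study was rerun here and adjusted by Benjamini-Hochberg over the same probe sets. It called 1 probe set in CUMS 1–3 against control (Tmem123, named after its value was seen), 0 in the other comparisons and 0 retinoid probe sets. Values are therefore given as levels and differences, and none is called changed.

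Among the 6 genes, Aldh1a1 was the one whose groups stood furthest apart. Its signal was 3654, 2435 and 3803 in control 1, 2 and 3. It was 5791, 8233 and 6601 in CUMS 1, 2 and 3, and 6298, 9777 and 8595 in CUMS 4, 5 and 6. Every stressed rat was above every control rat, and the lowest stressed rat, CUMS 1, read 5791 against 3803 in the highest control. The controls averaged 3297 ± 751 (SD, n = 3). The mean of the rats labelled major was 6875 ± 1244 (SD, n = 3), and that of the rats labelled mild 8223 ± 1769 (SD, n = 3).

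On the log2 scale Aldh1a1 was 1.07 ± 0.21 (SE) higher in CUMS 1–3 than in control (2.10-fold, adjusted p = 0.408 from limma) and 1.32 ± 0.21 (SE) higher in CUMS 4–6 (2.50-fold, adjusted p = 0.272). For all 6 CUMS rats the difference was 1.20 ± 0.18 (SE), or 2.29-fold with a 95% interval of 1.74 to 3.02, with an adjusted p of 0.147 from limma and an unadjusted p of 3.95e-05, which ranked 5 among the 18625 probe sets. In the exact permutation test, two-sided, the difference of 1.20 had p = 0.0119, the smallest that the 84 splits of 9 rats into 6 and 3 can give. Aldh1a1 is among the genes that the study selected on these same arrays, so neither p is independent evidence of its direction. Leaving out 1 rat at a time gave log2 differences of 0.99 (without control 2) to 1.31 (without control 3), each with the smallest p its number of splits allows. These permutation p-values restate the group sizes and the lack of overlap given above, and add no further support. With control 3, CUMS 2 and CUMS 4 all set aside the difference was 1.34. The result was thus as large without the arrays that stood apart.

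The 2 stressed groups overlapped for Aldh1a1. CUMS 1–3 were lower than CUMS 4–6 by a mean log2 difference of −0.25 with a 95% interval of −0.71 to 0.21 (adjusted p = 0.9996 from limma), an interval that also covers a difference of 0, so the symptom labels did not separate its level beyond the spread between rats.

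**Figure D1:**
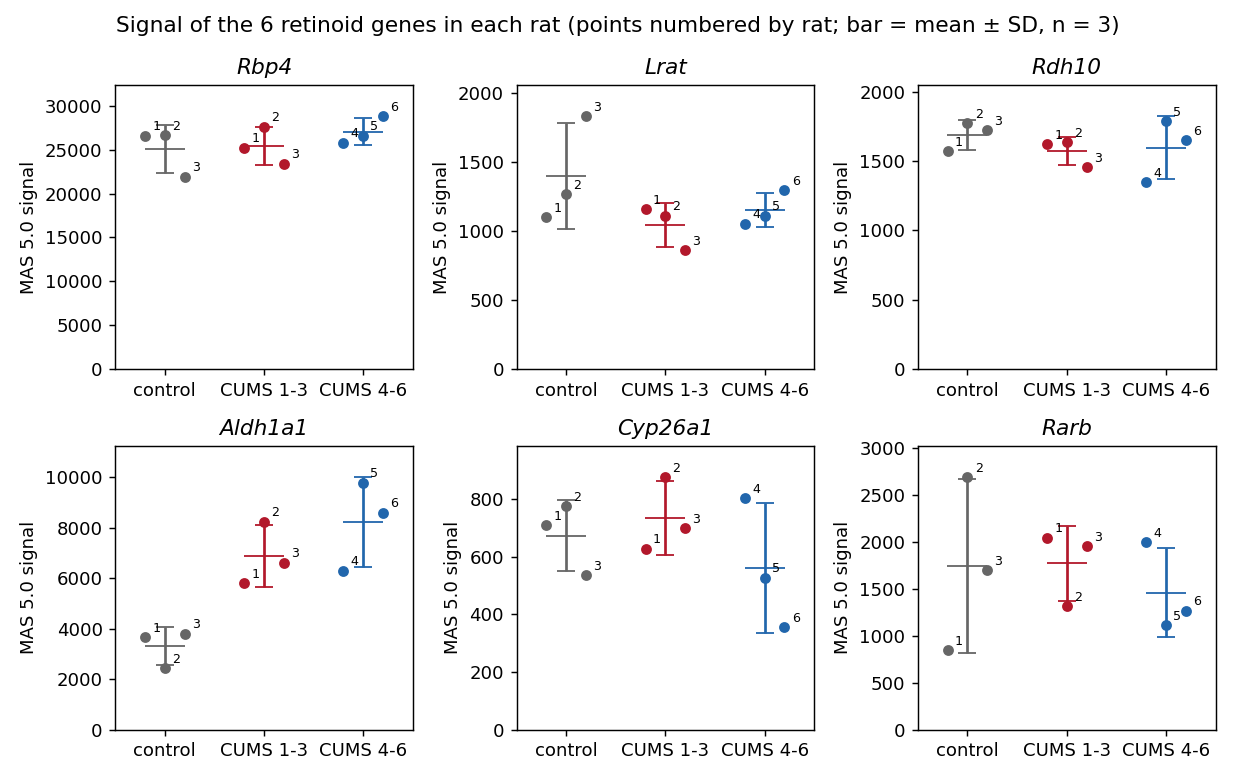
Deposited signal (linear, vertical axis from 0) of the 6 retinoid genes in each rat, numbered as in the labels, with the mean and SD of each group of 3. Aldh1a1 reads 2435 to 3803 in control and 5791 to 9777 in the stressed rats without overlap, while the groups overlap for the other 5 genes.

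Read against the probe sets that passed the filter, Aldh1a1 was 1 of 6 retinoid genes with all CUMS 1–3 rats above all control rats, a pattern that 5.30% of them showed. It was also 1 of 6 in CUMS 4–6 against control (5.34% of probe sets) and in all CUMS against control (1.52%). None of these 6 genes had the stressed rats below all controls, which 6.32%, 6.29% and 2.15% of probe sets showed in these comparisons. None of the 6 separated CUMS 1–3 from CUMS 4–6 (4.75% of probe sets higher, 4.37% lower). Aldh1a1 also passed the thresholds of the study, as rerun here (unadjusted p under 0.05 and a ratio of at least 1.5), in all 3 comparisons with control. Of all probe sets 1.26%, 1.19% and 1.56% passed them upward and 0.699%, 0.876% and 0.883% downward (ratio of at most 0.5). These 3 comparisons share their control rats. Since these shares are taken without the signal filter, all 7 retinoid probe sets count here: 2 met the thresholds upward in CUMS 1–3 and in all CUMS, and 1 in CUMS 4–6. The other one was a dim second probe set of Rdh10, described with that gene, and 0 met them downward or between the CUMS groups (1.08% of probe sets higher, 0.557% lower).

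Rbp4, the carrier that takes retinol out of the liver, was nearly level across the rats. Its signal was 26603, 26675 and 21901 in control 1, 2 and 3. It was 25236, 27627 and 23414 in CUMS 1, 2 and 3, and 25808, 26617 and 28788 in CUMS 4, 5 and 6. The lowest rat was control 3 and the highest CUMS 6, and the groups overlapped. The log2 difference from control was 0.024 in CUMS 1–3 and 0.12 in CUMS 4–6, and for all CUMS it was 0.070 ± 0.091 (SE, adjusted p = 0.895 from limma), or 1.05-fold with a 95% interval of 0.914 to 1.21. Without control 3 the difference was −0.024.

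Lrat, the enzyme that stores retinol as ester, had a lower mean in the stressed rats that rested largely on 1 control. Its signal was 1097, 1264 and 1827 in control 1, 2 and 3. It was 1156, 1109 and 859 in CUMS 1, 2 and 3, and 1051, 1108 and 1292 in CUMS 4, 5 and 6. Control 3 was far above all other rats, and control 1 and control 2 lay within the range of the stressed rats. The log2 difference was −0.40 ± 0.19 (SE) in CUMS 1–3 (adjusted p = 0.749 from limma) and −0.25 ± 0.19 (SE) in CUMS 4–6 (adjusted p = 0.854). For all CUMS rats it was −0.33 ± 0.17 (SE), and −0.11 without control 3.

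Markers of stellate cells, the cells that hold most hepatic Lrat, differed in the same direction. Of 22 markers 18 passed the filter, and all 18 had a lower mean in the 6 CUMS rats than in control, with a median log2 difference of −0.60, against −0.018 over all 10403 genes. Their summed signal was 16465 and 16858 in control 1 and 2 and 43555 in control 3, 10575 to 11014 in CUMS 1–3 and 11772 to 14531 in CUMS 4–6. Ngfr, Lum, Gfap and Hand2 were below the filter. Reln, a matrix glycoprotein made by stellate cells, read 1383 to 1640 in control, 808 to 1047 in CUMS 1–3 and 1063 to 1146 in CUMS 4–6 without overlap between control and stressed rats. Lox, a collagen cross-linking enzyme, read 275 to 1694 in control and 38.4 to 95.8 in the stressed rats. Without control 3, 16 of the 18 markers were still lower, with a median of −0.42. In bulk tissue, fewer cells of a type and less RNA per cell cannot be told apart, and the part of stellate cells in the level of Lrat was not tested.

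**Figure D2:**
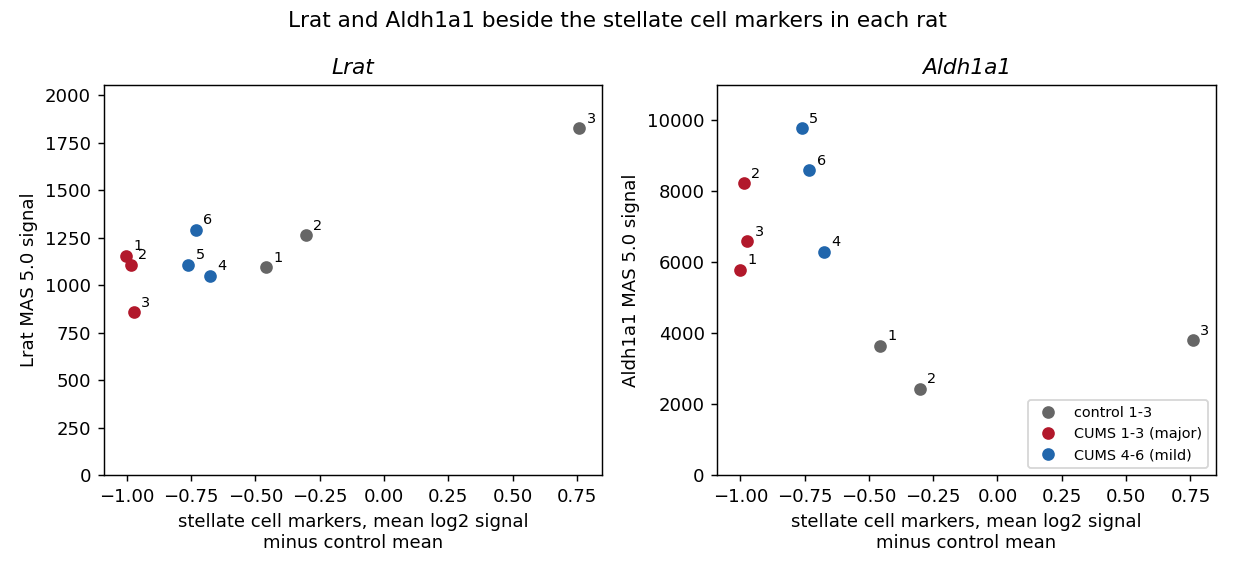
Signal of Lrat (left) and Aldh1a1 (right) in each rat (vertical axes from 0) against the mean log2 signal of 18 stellate cell markers minus its control mean. Control 3 lies alone at 0.76 with the highest Lrat signal (1827), and control 1 and control 2 lie at −0.46 and −0.30. The stressed rats lie between −1.001 and −0.68. For Aldh1a1 the 3 controls are the 3 lowest rats. Control and stressed rats share no marker level, so they cannot be compared at a common one.

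Markers of other cells gave a further view of the same livers. All 4 measured bile duct markers had a lower mean in stressed rats, but their summed signal was 9230 in control 3 and 693 to 1228 in the other 8 rats. Of 8 Kupffer cell markers 7 were lower (median −0.45), with summed signals of 25151 to 30724 in control, 17835 to 26318 in CUMS 1–3 and 18418 to 28753 in CUMS 4–6. Without control 3 the bile duct markers had a median of −0.14, with 3 of 4 lower, and the Kupffer cell markers one of −0.30, with 8 of 8 lower. Of 7 endothelial markers 5 were higher (median 0.041), and 7 without control 3, and of 11 hepatocyte markers 8 were higher (median 0.011), and 2 without control 3. Of 8 pericentral and 8 periportal hepatocyte markers, 6 each were higher, with medians of 0.18 and 0.067. Without control 3 they were 6 (median 0.16) and 1 (median −0.048), so that the direction of the periportal list rested on that rat. The part of these cells in the level of Aldh1a1 was not tested.

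Rdh10, which oxidises retinol to retinal, was level. Its signal was 1571, 1774 and 1724 in control 1, 2 and 3. It was 1625, 1638 and 1458 in CUMS 1, 2 and 3, and 1349, 1791 and 1652 in CUMS 4, 5 and 6. The groups overlapped, with the lowest rat (CUMS 4) and the highest (CUMS 5) in the same group. The log2 difference for all CUMS was −0.10 with a 95% interval of −0.34 to 0.15 (adjusted p = 0.877 from limma). A second Rdh10 probe set read 1.69 to 13.1 in control and 6.82 to 42.6 in the stressed rats, below the filter, with its CUMS 1–3 rats (18.2 to 41.4) above all controls. It met the study's thresholds in CUMS 1–3 and in all CUMS, where the brighter probe set did not, and at signals this low no fold is given for it.

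Cyp26a1, which breaks down retinoic acid, overlapped between the groups. Its signal was 710, 777 and 535 in control 1, 2 and 3. It was 628, 876 and 700 in CUMS 1, 2 and 3, and 804, 528 and 356 in CUMS 4, 5 and 6. CUMS 4–6 held both the second highest and the lowest of the 9 rats. The log2 difference from control was 0.13 ± 0.27 (SE) in CUMS 1–3 and −0.32 ± 0.27 (SE) in CUMS 4–6 (adjusted p = 0.949 and 0.865 from limma). Between the stressed groups it was 0.45 with a 95% interval of −0.14 to 1.04 (adjusted p = 0.9996), the widest mean difference between the CUMS groups among the 6 genes, and within the spread between rats.

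Rarb, the receptor that is itself induced by retinoic acid, varied most within the control group. Its signal was 844, 2688 and 1698 in control 1, 2 and 3. It was 2044, 1317 and 1951 in CUMS 1, 2 and 3, and 1995, 1112 and 1264 in CUMS 4, 5 and 6. All stressed rats lay inside the range of the control rats. The log2 difference was 0.15 ± 0.37 (SE) in CUMS 1–3 and −0.15 ± 0.37 (SE) in CUMS 4–6 (adjusted p = 0.961 and 0.970 from limma). For all CUMS rats the fold change was 0.999 with a 95% interval of 0.614 to 1.63, which leaves room for a difference in either direction. The groups thus overlapped for both genes with the hexamer repeat in the printed promoter.

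**Figure D3:**
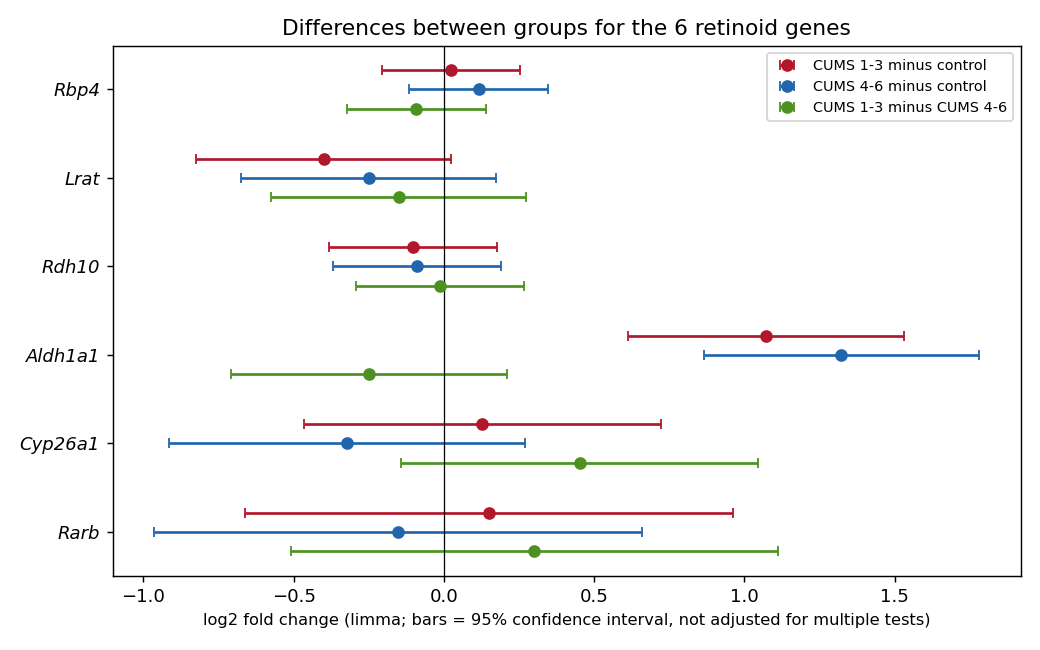
Log2 fold change between groups for the 6 retinoid genes (horizontal axis), with points for the estimate and bars for the 95% confidence interval from limma, not adjusted for multiple tests. Both intervals of Aldh1a1 against control lie above 0 (0.61 to 1.53 and 0.86 to 1.78), and the other intervals shown include 0.

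The wider pathway was read from 7 lists with 80 genes in all, of which 66 had a probe set of their own and 57 passed the filter. In all CUMS rats against control 31 of the 57 had a higher and 26 a lower mean, with a median log2 difference of 0.013, against −0.018 over 10403 genes. Without control 3 the split was 25 higher and 32 lower. At an unadjusted p under 0.05, 5 of the 57 were higher and 4 lower, beside 351 and 649 of all 10403 genes. For probe sets the shares were 3.07% and 4.86%. Without control 3 they were 3 and 2 of the 57, beside 291 and 377 of the 10403 genes. None was called by limma. Of the 57, 5 lay above and 3 below all controls in CUMS 1–3 (5.30% and 6.32% of probe sets). In CUMS 4–6 they were 8 and 3 (5.34% and 6.29%), and in all CUMS 3 and 1 (1.52% and 2.15%). Between the CUMS groups, 0 were higher and 5 lower without overlap (4.75% and 4.37%). The lists hold the 6 genes above, and 51 genes remain without them, of which 29 were higher and 22 lower (23 and 28 without control 3).

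The 4 measured enzymes that take retinal to retinoic acid split, with 2 higher and 2 lower, and 3 and 1 without control 3. Aldh1a3, a close relative of Aldh1a1 with the same reaction, had a lower mean in the stressed rats. Its signal was 718, 833 and 885 in control, 564, 509 and 524 in CUMS 1–3, and 564, 647 and 670 in CUMS 4–6. Every stressed rat was below every control rat. The log2 difference was −0.61 ± 0.13 (SE) in CUMS 1–3, −0.37 ± 0.13 (SE) in CUMS 4–6 and −0.49 ± 0.12 (SE) in all CUMS (adjusted p = 0.444 from limma for all CUMS), and −0.42 without control 3. Aldh1a2 read 83.0 to 143 in control and 95.8 to 146 in the stressed rats, with overlap. Aox1, an aldehyde oxidase that also accepts retinal, read 7666 to 7804 in control, 7599 to 8561 in CUMS 1–3 and 8157 to 9702 in CUMS 4–6, above all controls in the latter (log2 difference 0.23, adjusted p = 0.770 from limma). Aox4 was below the filter. Aldh1a7, Aldh8a1 and Aox3 had no probe set of their own.

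Among genes of ester storage and hydrolysis, 6 of 12 were higher and 6 lower, and 4 and 8 without control 3. The 3 higher ones at an unadjusted p under 0.05 were carboxylesterases, a family that can hydrolyse retinyl esters among many other substrates. Ces1d read 5239, 4062 and 3663 in control, 7686, 8500 and 4866 in CUMS 1–3, and 5707, 8101 and 9954 in CUMS 4–6. All stressed rats except CUMS 3 were above all controls. The log2 difference of Ces1d in all CUMS was 0.76 ± 0.21 (SE, adjusted p = 0.467 from limma), and its ratio and unadjusted p met the study's thresholds in CUMS 4–6 and in all CUMS. Ces1e read 2104 to 2351 in control and 2512 to 3344 in the stressed rats without overlap, with a log2 difference of 0.44 ± 0.10 (SE, adjusted p = 0.444). Ces1c differed by 0.28 ± 0.12 (SE, adjusted p = 0.604), and by 0.18 without control 3. Genes of 1 carboxylesterase family are similar in sequence, and probe sets may read more than 1 of them. Dgat2, which makes triglyceride, read 6126 to 7175 in control and 7504 to 8659 in CUMS 1–3 without overlap (log2 difference 0.26, adjusted p = 0.733 from limma).

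Lpl, lipoprotein lipase, had the lowest log2 difference of the 57 genes, and its size rested in part on control 3. Its signal was 224, 438 and 2406 in control, 188, 58.6 and 159 in CUMS 1–3, and 317, 210 and 201 in CUMS 4–6. Every CUMS 1–3 rat was below every control rat, and CUMS 4–6 overlapped with control. The log2 difference in CUMS 1–3 was −2.36 ± 0.72 (SE, adjusted p = 0.690 from limma), and −1.38 without control 3. The log2 difference in all CUMS was −1.87 ± 0.63 (SE, adjusted p = 0.546 from limma), and −0.89 without control 3.

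Of the 16 enzymes between retinol and retinal, 13 had a higher mean in all CUMS and 3 a lower one (median 0.13), and 9 and 7 without control 3. Bco1, which cleaves beta-carotene to retinal, read 1235, 1120 and 956 in control, 957, 797 and 849 in CUMS 1–3, and 784, 868 and 730 in CUMS 4–6. CUMS 4–6 lay below all controls, and CUMS 1 was level with control 3. The log2 difference of Bco1 in all CUMS was −0.41 ± 0.12 (SE, adjusted p = 0.496 from limma). Dhrs4, a reductase that acts on retinal, read 3077 to 3274 in control and 3399 to 3885 in the stressed rats without overlap, a difference of 0.18 ± 0.083 (SE, adjusted p = 0.623). Dhrs3, which returns retinal to retinol and is a known retinoic acid target, read 2816 to 3301 in control and 2678 to 3904 in the stressed rats. Rdh7, a microsomal retinol dehydrogenase, read 15368 to 17746 in control and 18573 to 20455 in CUMS 4–6, above all controls, with 16078 to 19935 in CUMS 1–3.

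Carriers, clearance enzymes and receptors had no gene with an unadjusted p under 0.05 in all CUMS against control. At that p, 1 of the 5 carriers was lower in CUMS 4–6 than in control (3.55% of probe sets). Likewise 1 was lower in CUMS 1–3 than in CUMS 4–6 (1.32%). Of 5 carriers 3 were higher and 2 lower, and without control 3 they were 1 and 4. Fabp5, which delivers retinoic acid to the receptor Ppard, read 1436, 3809 and 3592 in control and 1277 to 2111 in the stressed rats, a log2 difference of −0.59 ± 0.28 (SE, adjusted p = 0.636 from limma). It was −0.39 without control 3, and leaving out each rat gave −1.05 to −0.34. Ttr, which carries Rbp4 in blood, read 20763 to 26068 in control, 20179 to 23701 in CUMS 1–3 and 26245 to 26549 in CUMS 4–6, so that the CUMS groups did not overlap with each other (log2 difference −0.26, adjusted p = 0.9996 from limma). Rbp7 read 84.7 to 177 in control and 72.6 to 200 in the stressed rats. Of the 4 clearance genes, Cyp2c22, a retinoic acid hydroxylase of rat liver, differed by 0.063, Cyp26b1 by −0.075 and Cyp2s1 by −0.27 on the log2 scale, each with overlapping groups. Without control 3 these were 0.011, −0.078 and −0.41.

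Of the 9 receptors and coregulators, 3 were higher and 6 lower (4 and 5 without control 3). The smallest p-values belonged to the coactivator Ncoa1 (log2 difference −0.15), the corepressor Ncor1 (0.29), the receptor Rarg (−0.22) and Ppard (−0.12), with adjusted p from 0.795 to 0.899 by limma. Ncor1 ran from −0.016 to 0.52 and Ppard from −0.24 to −0.054 when each rat was left out. Of 13 genes known to respond to retinoic acid, 5 were higher and 8 lower (median −0.030), and 6 and 7 without control 3. Rarres1, a retinoic acid receptor responder, read 5160 to 5718 in control, 2781 to 4981 in CUMS 1–3 without overlap, and 3379 to 5375 in CUMS 4–6. Its log2 difference was −0.56 ± 0.21 (SE) in CUMS 1–3 and −0.42 ± 0.18 (SE) in all CUMS (adjusted p = 0.732 and 0.613 from limma). Nr0b2, a corepressor that represses bile acid synthesis, read 1328 to 2589 in control and 736 to 4482 in the stressed rats, so its log2 difference of 0.51 (0.33 without control 3) was within the spread.

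**Figure D4:**
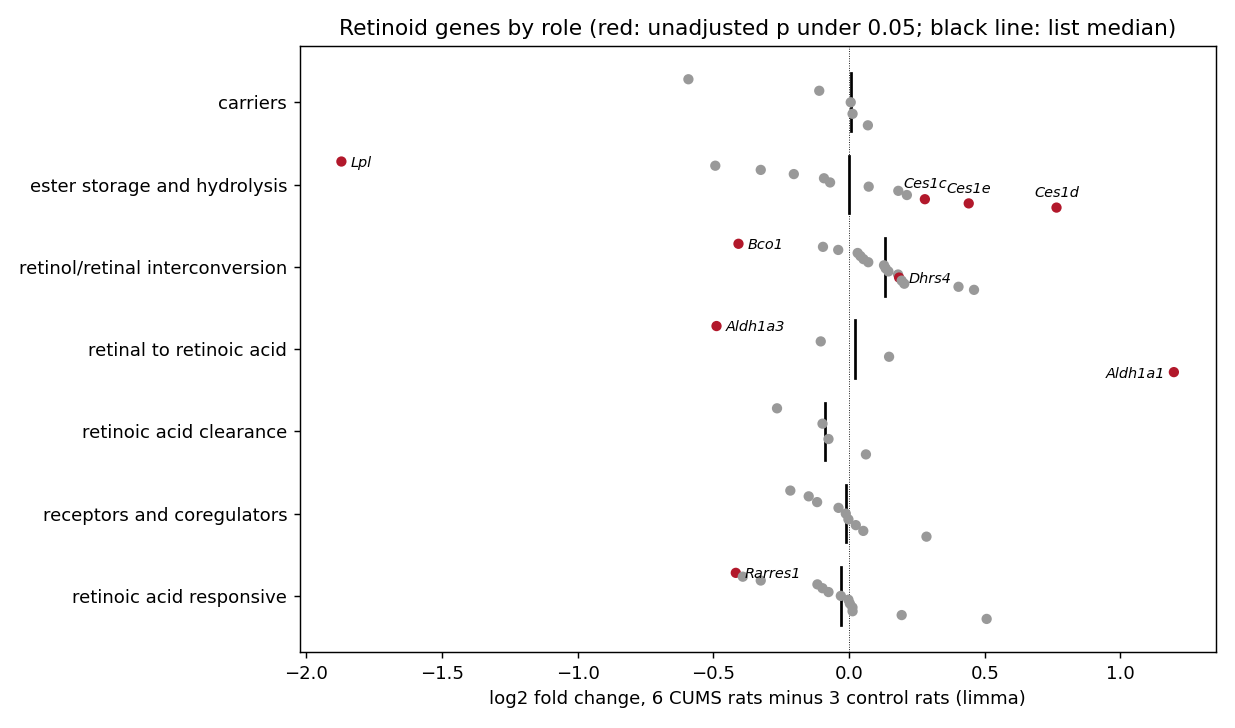
Log2 fold change of the 6 CUMS rats minus the 3 control rats (limma, horizontal axis) for the retinoid genes that passed the filter, in 7 lists by role, where a gene may stand in 2 lists. Red points have an unadjusted p under 0.05 and are named, black lines are list medians, and the medians lie between −0.086 and 0.13 while Aldh1a1 (1.20) and Lpl (−1.87) lie at the ends.

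Over the 9 rats, Pearson correlations of log2 signal between the 6 genes ran from −0.41 (Lrat with Cyp26a1) to 0.57 (Lrat with Rdh10), over 15 pairs. After subtraction of group means, the lowest was −0.82, between Aldh1a1 and Rarb. These are descriptions over 9 arrays that share scaling and, for the first, the group differences. Among 10277 genes outside the lists, 19 had a correlation above 0.9 with Aldh1a1. The 5 most like it were Klhl7 (r = 0.97), an adaptor of a ubiquitin ligase; Nhej1 (0.96), a DNA end-joining factor; Vnn1 (0.95), a pantetheinase; Cyp4f6 (0.95), a fatty acid hydroxylase; and Tmem106b (0.93), a lysosomal membrane protein. Within groups their correlations were 0.92, 0.91, 0.86, 0.73 and 0.67. Picking genes by likeness to Aldh1a1 over all 9 rats favours genes with the same group difference, so their differences are no separate evidence. Vnn1 read 501 to 880 in control and 995 to 1735 in the stressed rats without overlap, a log2 difference of 1.03 ± 0.22 (SE, adjusted p = 0.401 from limma). Klhl7 read 687 to 888 in control and 951 to 1147 in the stressed rats, with a smaller difference of 0.38 ± 0.12 (SE, adjusted p = 0.516).

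**Figure D5:**
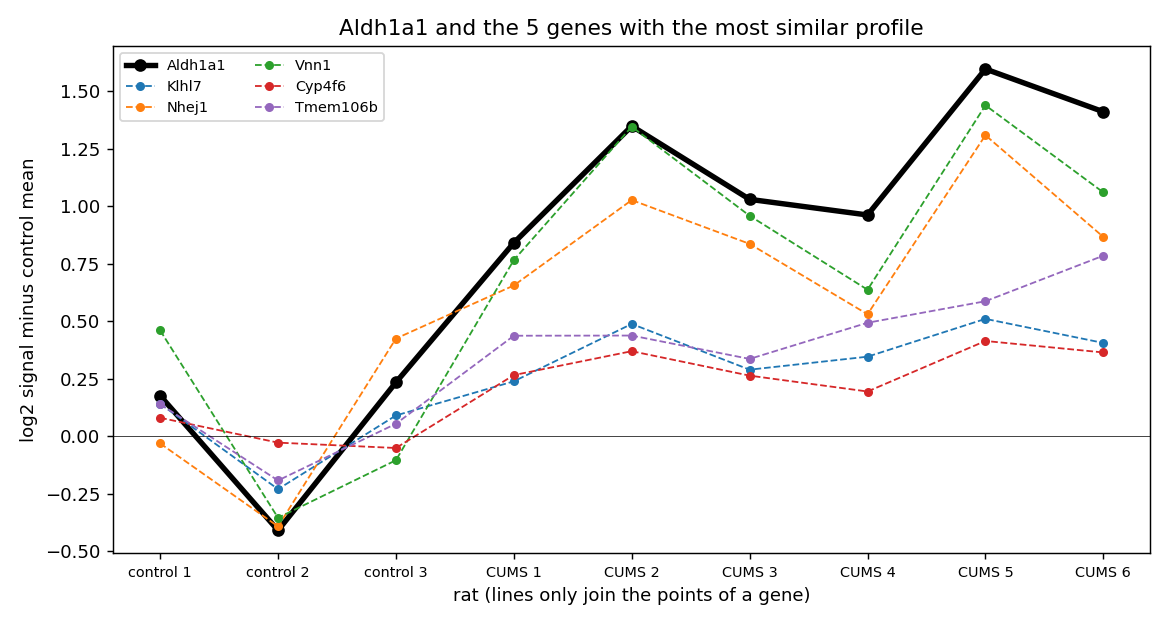
Log2 signal minus the control mean (vertical axis) in each of the 9 rats (horizontal axis) for Aldh1a1 and the 5 genes with the highest correlation to it, where lines only join the points of a gene. In all 6 genes control 2 or control 3 is the lowest rat and CUMS 5 or CUMS 6 the highest.

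For the other genes the nearest profiles were Acsl1 (0.98), Flad1 (0.97) and Scyl2 (0.96) for Rbp4, and Cdc42ep5 (0.96), Pik3r2 (0.95) and H2az1 (0.93) for Lrat. They were Rab11fip1 (0.96), Pabpn1 (0.95) and S1pr1 (0.94) for Rdh10, Slc20a2 (0.94), Fbxo4 (0.93) and Prr3 (0.93) for Cyp26a1, and Pno1 (0.89), Dhodh (0.87) and Snrpb (0.85) for Rarb. A correlation above 0.9 was reached by 30 genes with Rbp4, 25 with Lrat, 4 with Rdh10, 6 with Cyp26a1 and 0 with Rarb, beside 19 with Aldh1a1. Leaving out the 2 rats farthest from its median took Lrat with Cdc42ep5 to 0.72, Rdh10 with Rab11fip1 to 0.82 and Rbp4 with Acsl1 to 0.87. Cyp26a1 with Slc20a2 and Rarb with Pno1 were both at 0.93, and Aldh1a1 with Klhl7 at 0.96. Of the other genes named for Aldh1a1, Tmem106b went to 0.84 and Nhej1 to 0.88, and Vnn1 and Cyp4f6 were at 0.96 and 0.97.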

How the data were processed

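Livers of 9 GK rats were measured, 1 array per rat. The deposited values are signal intensities on a linear scale that the authors made with MAS 5.0. Their number, 9 arrays, limits the precision. The 57 control probe sets were left out, the 586 signals below 1 were set to 1, and log2 was taken. Ranked by their mean over the arrays, the upper 18625 of 31042 probe sets were kept and the lowest 40% dropped. The groups were fitted together with limma 3.58.1 in R 4.3.3 (6 residual degrees of freedom, variance trend), with calls at a Benjamini-Hochberg adjusted p under 0.05 over all probe sets. The fit was checked on simulated data. The study names ANOVA; for 2 groups, assuming equal variances, it was run on the same values (the test of the study). The thresholds of the study are a ratio of at least 1.5 or at most 0.5 together with p under 0.05. Here they were applied to log2 differences and to the unadjusted p of this test, without the signal filter. The paper does not describe a filter on low signals, so the probe sets that passed here are not its own selection. The test was also adjusted over the filtered probe sets.

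A gene of a list was read by 1 probe set, that with the highest mean among those with 1 symbol (20826 probe sets; 436 had several symbols and 9780 none). Named are the 7 genes, up to 4 genes per retinoid list with the smallest p in all CUMS against control, genes with an unadjusted p under 0.05 against control and no overlap, and the most similar profiles. Stellate cell genes were named after their values were seen. The genes and lists were chosen with earlier results of these data known. Alternatives were filter, scaling, an added 50, groups fitted, variance model, array weights, each rat left out and the replicate number as a block. Promoters were searched in Python 3.11.15 with Biopython 1.88.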

Additional observations from a re-analysis of the deposited data

How the results depend on the processing

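Aldh1a1 kept its direction and stayed above an adjusted p of 0.05 in every alternative run, with log2 differences of 0.99 to 1.34 and adjusted p of 0.0769 to 0.544 in all CUMS, 0.87 to 1.19 and 0.300 to 0.987 in CUMS 1–3, and 1.12 to 1.62 and 0.0930 to 0.882 in CUMS 4–6. The exact permutation p of its difference was 0.0119 to 0.0357, the last with only 2 controls. Each was the smallest its number of splits allows, so this range reflects group sizes and adds no further support. The number of probe sets called went from 0 to 1 in CUMS 1–3 against control by the test of the study (Tmem123), and from 0 to 1 in CUMS 4–6 and in all CUMS against control with each array centred on its median (Gsta3 in both, named after its value was seen). No retinoid probe set was called in any alternative. At an unadjusted p under 0.05, CUMS 4–6 against control had 1845 probe sets without the signal filter, against 1170, and CUMS 1–3 against CUMS 4–6 had 1048 without it and 326 with a stricter filter, against 530. Leaving out each rat gave 818 (without CUMS 2) to 1495 for CUMS 1–3 against control, 814 to 1515 for CUMS 4–6, 1051 to 1729 for all CUMS and 489 to 676 between the CUMS groups.

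Log2 differences that turned their sign belonged to genes within the spread between rats. With array weights, Rbp4 in CUMS 1–3 was −0.013 and Rarb in all CUMS 0.0049. With quantile normalization, Rbp4 was −0.011 in CUMS 4–6 against control and 0.048 in CUMS 1–3 against CUMS 4–6, and Rarb in all CUMS was 0.016. Centred on the median, Rarb in all CUMS was 0.051. Leaving out each rat, Rbp4 ran from −0.071 to 0.081 in CUMS 1–3 and −0.024 to 0.12 in all CUMS. Rarb ran from −0.30 to 0.54 in CUMS 1–3, −0.60 to 0.24 in CUMS 4–6 and −0.45 to 0.39 in all CUMS. Cyp26a1 ran from −0.029 to 0.24 in CUMS 1–3 and −0.25 to 0.048 in all CUMS. Rdh10 ran from −0.18 to 0.028 in CUMS 4–6 and −0.13 to 0.074 between the CUMS groups. With control 3, CUMS 2 and CUMS 4 set aside, an alternative chosen after seeing the data, Rbp4 was −0.13 in CUMS 1–3 and −0.038 in all CUMS, Cyp26a1 −0.16 in CUMS 1–3, Lrat 0.024 and Rdh10 0.044 in CUMS 4–6, and Rarb 0.030 in all CUMS. The cause was not tested.

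The replicate numbers 1 to 3 are shared by control and CUMS 1–3, and the deviations of same-numbered rats correlated at 0.0030, −0.049 and 0.14, so the numbers were not taken to pair the rats. With the replicate block, 0 probe sets were called and 1361 had an unadjusted p under 0.05, against 1259, and Aldh1a1 was 1.07 higher with an adjusted p of 0.315. Groups of 3 rats and array signals limit what these data can detect, and genes whose interval spans 0 may still differ.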
